A study of Mus musculus with 56 samples.

Results

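The genes described here are a fixed list of 38 genes that equip absorptive enterocytes for digestion and nutrient uptake. The list holds brush border hydrolases, transporters of sugars, peptides and amino acids, genes of lipid handling, and a few urea cycle and retinol genes. Each was represented, in each tissue, by the probe set annotated to that gene alone that had the highest mean. By this rule 36 of the 38 had a value, out of 18194 genes on the array. Sis (sucrase-isomaltase) and Ggt1 (a gamma-glutamyltransferase) had no probe set of their own, and all 36 measured members passed the filter on low signal in both tissues.

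Expression was measured in whole colon and whole jejunum of BALB/C mice, either WT or lacking the TNF family cytokine Tweak (Tweak_KO, here KO), after 3 Gy of ionizing radiation. The labels place groups at 0, 6 and 24 h, and they do not say whether the 0 h mice had been irradiated. Of the 56 arrays, WT colon had 5 at 0 h, 4 at 6 h and 4 at 24 h, and KO colon had 5 at each time. WT jejunum had 5, 5 and 4 arrays at these times and KO jejunum had 5, 4 and 5. No age is given. Precision is limited by how few arrays each group holds. Signals are on a log2 scale throughout, and a change is a difference of group means ± SE. A gene was called when its adjusted p from limma was under 0.05 over the 13645 genes tested in that tissue.

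Enterocytes are made from dividing crypt cells, move up the villus and are shed at its tip within days, so the tissue is renewed continuously. On their apical brush border sit the enzymes that finish the digestion of starch, milk sugar and protein, next to the transporters that take up the products. Inside the cell, fatty acids are rebuilt into triglycerides and packed with apolipoproteins into chylomicrons, while surplus sterols are pumped back into the lumen. Most of these genes are used far more in small intestine than in colon, and within the small intestine many differ from duodenum to ileum. In whole tissue, fewer cells of a type and less RNA per cell cannot be told apart.

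Several arrays stood apart and bear on the results. A probe set shared by Tnfsf12, which encodes Tweak, and the read-through Tnfsfm13 read 3.71 to 4.67 on WT colon arrays and 2.28 to 2.81 on KO ones, and 2.77 to 4.09 against 2.34 to 2.75 in jejunum. A second probe set, which lists Tnfsf13 as well as these genes, overlapped between the genotypes. It read 7.16 to 8.01 on WT and 6.93 to 8.07 on KO colon arrays, and 5.22 to 7.86 against 5.96 to 7.74 in jejunum. The mean of 8 general epithelial markers ranged from 12.68 to 12.95 in colon and from 12.29 to 12.94 in jejunum. The mean of 5 p53 target genes, which radiation induces, was 7.11 to 7.19 on the WT colon 0 h arrays and 8.96 to 9.59 on every colon array at 6 or 24 h. KO colon 0 h replicate 3 read 9.06 in this list, inside the range of the irradiated arrays. In colon, WT 0 h replicate 2 had the highest signal of all 28 arrays for 33 of the 36 members, where 5.72% of all genes did so. WT 0 h replicate 3 was above the remaining 26 arrays for 17 of 36 members, against 4.90% of all genes. In jejunum the arrays differed in markers of position along the small intestine, as described with the jejunum results. All WT arrays came from 1 batch, and every KO array came from another except KO 0 h replicate 1 of each tissue, so genotype and batch can hardly be told apart.

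The levels at 0 h in WT mice separated the tissues for nearly every member. For 35 of the 36, all 5 jejunum arrays read higher than all 5 colon arrays. One of these, Slc5a1, is represented by a different probe set in each tissue, so its order compares different probes, and among the 35 members with the same probe set 34 had this order. The tissues had been normalized separately, so this is a description without a test. Lct, the lactase that splits milk sugar, had a median of 12.93 in jejunum and 2.96 in colon. Treh, which splits trehalose, had 12.01 and 2.32, and Slc2a2, the basolateral glucose transporter GLUT2, had 11.23 and 2.28. These colon medians lay at or near the lowest signal on the colon arrays, 2.28.

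Other members had a clear colon signal. Fabp2, the intestinal fatty acid binding protein, read 11.70 to 14.11 in colon and had a median of 15.07 in jejunum. Vil1, the actin-bundling protein of microvilli, had 11.53 and 13.30. Mgam, the maltase-glucoamylase, had 10.05 and 13.55. The 1 exception was Mep1a, the alpha subunit of the brush border metalloprotease meprin, which read 9.82 to 10.88 in colon and 7.48 to 8.67 in jejunum. Mep1b, the other meprin subunit, had the usual order, with medians of 10.24 in colon and 13.15 in jejunum.

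**Figure D1:**
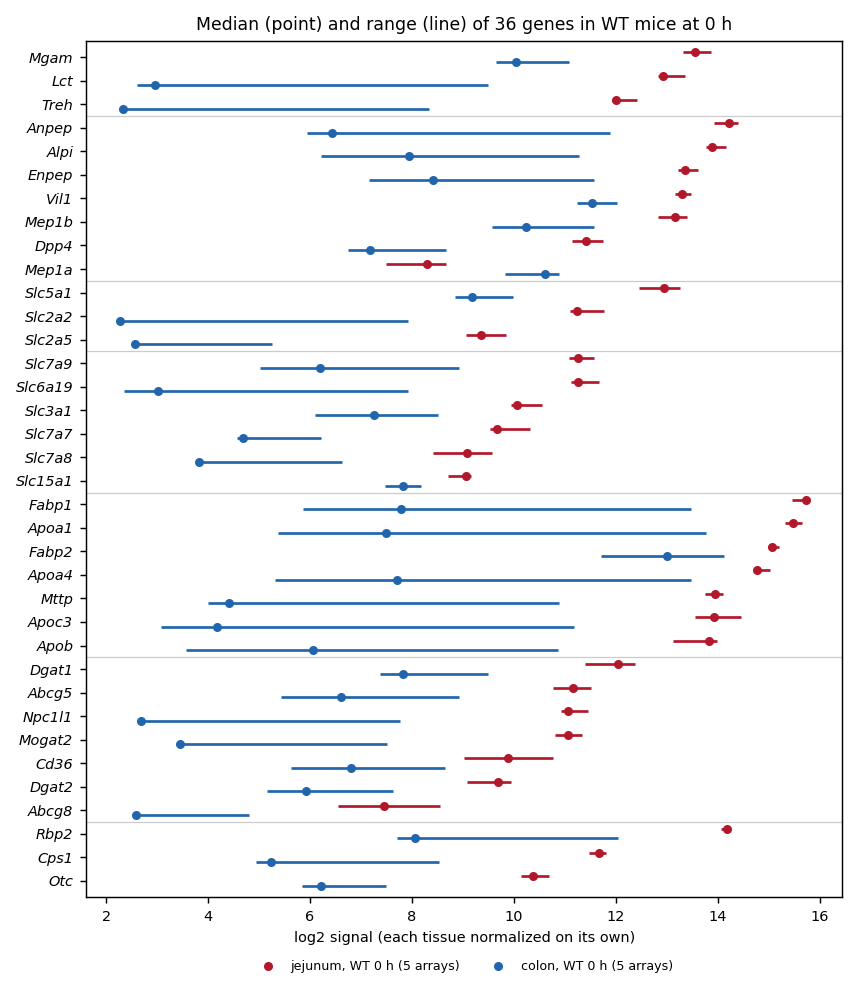
Log2 signal of the 36 measured members in WT mice at 0 h, with the median as a point and the range over 5 arrays as a line, for jejunum (red) and colon (blue), grouped by role. The jejunum range lies above the colon range in 35 of 36 genes, Mep1a is the exception, and the long blue lines run up to WT 0 h replicate 2.

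In the colon of WT mice, 1 member rose and none fell at 6 h, and 1 rose and 3 fell at 24 h against 0 h. Among all genes tested, 2.18% were called at 6 h, 1.44% as higher. At 24 h 5.29% were called, 2.78% as higher and 2.51% as lower. Mep1a was the member that rose, and Cps1, Otc and Mgam fell at 24 h. The median change of the members was -0.53 at 6 h and -0.60 at 24 h, against 0.00 and 0.01 over all genes. That shift moved with the replicates 2 and 3 of the 0 h group: without them the member medians were 0.22 and 0.02, against 0.01 and 0.01 over all genes.

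Markers of other cells moved over the same times in WT colon. The mean of the 4 measured proliferation markers was 6.97 to 8.79 at 0 h, 7.08 to 7.52 at 6 h and 5.25 to 6.70 at 24 h, and all 4 fell at 24 h, among them Mki67 (-1.99, adjusted p = 0.000296) and Top2a (-1.61, adjusted p = 0.00745). Of 4 measured leukocyte markers, Cd79a (-1.40, adjusted p = 0.0265) and Ptprc (-0.78, adjusted p = 0.0230) fell, and of 4 colonocyte markers Car4 rose (0.50, adjusted p = 0.0161). The means of these lists were 6.17 to 7.26 at 0 h and 6.09 to 6.32 at 24 h for leukocytes, and 12.71 to 13.30 and 13.20 to 13.40 for colonocytes. Their part in the member results was not tested.

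The upstream sequences of Mep1a, which rose, and Otc, which fell, are printed because these members carry the colon result. They are RefSeq sequences of GRCm38.p6 that run from 250 bases before the annotated start of the gene to 50 bases after it. Mep1a lies at chr17:43502724-43503023 on the minus strand and Otc at chrX:10252055-10252354 on the plus strand. Capitals mark GATAA or its reverse complement TTATC, the core letters bound by GATA factors, which are known regulators of enterocyte genes.
Mep1a: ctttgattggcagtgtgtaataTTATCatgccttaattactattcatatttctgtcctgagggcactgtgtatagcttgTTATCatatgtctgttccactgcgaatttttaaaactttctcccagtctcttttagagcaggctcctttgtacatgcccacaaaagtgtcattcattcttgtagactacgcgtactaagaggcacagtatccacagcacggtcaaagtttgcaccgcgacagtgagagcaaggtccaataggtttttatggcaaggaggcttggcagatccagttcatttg
Otc: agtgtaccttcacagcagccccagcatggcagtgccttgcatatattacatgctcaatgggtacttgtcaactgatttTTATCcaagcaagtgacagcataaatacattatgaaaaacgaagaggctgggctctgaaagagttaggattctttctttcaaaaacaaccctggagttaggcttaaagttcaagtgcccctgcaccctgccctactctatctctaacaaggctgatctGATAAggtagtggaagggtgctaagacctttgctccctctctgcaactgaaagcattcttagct
Each window holds 2 such matches. A match in these letters is a description and not a binding site.

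Mep1a read 9.82, 10.88, 10.14, 10.67 and 10.61 on the WT colon arrays at 0 h. At 6 h it read 11.17, 11.25, 11.22 and 10.88, and at 24 h 11.45, 11.997, 11.46 and 11.20. The 24 h arrays were all above the 0 h arrays, while the lowest 6 h array and the highest 0 h array read alike. The rise was 0.70 ± 0.178 at 6 h (1.63-fold, adjusted p = 0.0327) and 1.11 ± 0.178 at 24 h (2.15-fold, adjusted p = 0.000702). The 24 h rise was called whichever array was left out and also without 0 h replicates 2 and 3 (1.16 ± 0.192, adjusted p = 0.00164). The 6 h rise lost its call without any 1 of 5 arrays, among them 0 h replicate 1, which left 0.55, and with 0 h replicates 4 and 5 alone it was 0.49 (adjusted p = 0.367).

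In KO colon, Mep1a read 10.77, 10.90, 11.06, 10.57 and 10.63 at 0 h. The highest of these was on replicate 3, the array with the high p53 target level. At 24 h Mep1a read 11.20, 11.14, 10.77, 11.35 and 10.99. The KO ranges overlapped, and the change of 0.30 ± 0.167 was not called (adjusted p = 0.702). The KO change minus the WT change at 24 h was -0.80 ± 0.244, with an unadjusted p of 0.00302 and an adjusted p of 0.442, so a difference between the genotypes was not called.

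Otc encodes ornithine transcarbamylase and Cps1 carbamoyl phosphate synthetase 1, the mitochondrial enzymes that open the urea cycle and also feed citrulline synthesis in enterocytes. Otc read 6.22, 7.49, 6.47, 6.14 and 5.83 in WT colon at 0 h and 5.26, 4.78, 4.19 and 4.91 at 24 h. These 2 groups did not overlap. The 6 h arrays, at 6.16, 5.03, 5.29 and 5.44, overlapped the range of each. The change at 24 h was -1.65 ± 0.308 (3.13-fold lower, adjusted p = 0.00251). It was -1.28 ± 0.307 without 0 h replicates 2 and 3 (adjusted p = 0.0199) and -1.20 with 0 h replicates 4 and 5 alone (adjusted p = 0.108).

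In KO colon, Otc read 6.55, 6.59, 5.07, 6.63 and 6.38 at 0 h. At 6 h it read 5.77, 5.88, 6.22, 6.31 and 6.06, and at 24 h 5.24, 4.91, 4.94, 4.61 and 4.71. Only replicate 3 of the 0 h group, the array with the high p53 target level, reached into the 24 h range. Over all arrays, Otc was the only member called in KO colon, with a change of -1.36 ± 0.290 from 0 to 24 h (2.57-fold lower, adjusted p = 0.0476, 0.183% of all genes called). From 6 to 24 h the change was -1.16 ± 0.290 (2.24-fold lower, adjusted p = 0.0447, 1.29% of all genes called). Without KO 0 h replicate 3 the change from 0 h was -1.65 (adjusted p = 2.9e-05), but with any 1 of the other 9 arrays left out it lost its call, as the fall from 6 h did with any of its 10 arrays left out. The interaction at 24 h was 0.29 ± 0.423 (adjusted p = 0.891), so a larger fall in either genotype was not called.

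Cps1 read 5.23, 8.53, 6.12, 4.93 and 5.10 in WT colon at 0 h and 3.97, 2.96, 2.93 and 3.07 at 24 h. The groups did not overlap even with replicates 2 and 3 set aside, and 3 of the 4 later values lay within 1 log2 unit of the floor of 2.28. The change was -2.75 ± 0.579 (6.74-fold lower, adjusted p = 0.00628), and -1.86 ± 0.495 without those replicates (adjusted p = 0.0356). With 0 h replicates 4 and 5 alone it was -1.79 (adjusted p = 0.144). At 6 h the arrays read 4.46, 4.27, 3.42 and 3.37, also below every 0 h array, but the change of -2.10 ± 0.579 missed the threshold (adjusted p = 0.0548).

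Mgam read 9.85, 11.07, 10.26, 10.05 and 9.65 in WT colon at 0 h and 9.61, 9.49, 9.39 and 9.72 at 24 h. The lowest 0 h array lay inside the 24 h range. The change of -0.62 ± 0.172 (1.54-fold lower, adjusted p = 0.0351) became -0.30 without 0 h replicates 2 and 3 and was then not called (adjusted p = 0.152). Leaving out 0 h replicate 3 (-0.60), 24 h replicate 2 (-0.60) or 24 h replicate 3 (-0.57) ended the call too.

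No lipoprotein gene was called in WT colon, nor was the fatty acid binding protein Fabp1, and their values turned on 0 h replicates 2 and 3. Fabp1 read 13.47 and 11.04 on 0 h replicates 2 and 3 and 3.82 to 9.05 on the other 26 colon arrays. Apoa1, the main protein of high density lipoprotein, read 13.76 and 9.83 against 3.18 to 8.86. Apoc3, an inhibitor of triglyceride clearance, read 11.18 and 6.79 against 2.99 to 6.05. The Fabp1 change at 24 h was -3.31 ± 1.07 with these arrays (adjusted p = 0.0708) and -1.04 ± 0.754 without them (adjusted p = 0.506).

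In other markers, replicate 2 stood above the other colon arrays for both small intestine lists. Replicate 3 lay within the range of the other arrays in each list given here. Of 9 proximal small intestine markers, the mean was 6.03 on replicate 2 and 4.95 on replicate 3, against 4.49 to 4.97 on the other colon arrays. Of 5 distal small intestine markers, it was 7.96 on replicate 2 and 7.11 on replicate 3, against 5.68 to 7.56 on the others. Of 5 exocrine pancreas markers, the mean was 9.30 on replicate 2 and 3.94 on replicate 3, and it ranged from 3.72 to 9.58 over all colon arrays. Colonocyte markers read 12.94 and 13.08, within the range of the other arrays. The part of these in the results was not tested.

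Setting the 2 arrays aside changed which members were called in WT colon at 24 h to 5 higher and 2 lower, where 3.85% of all genes were called. This setting was chosen after the data were seen. At 6 h it gave 2 higher members, Mep1a (0.76, adjusted p = 0.0449) and the cystine transporter light chain Slc7a9 (1.16, adjusted p = 0.0397), where 1.49% of all genes were called. Alpi, the intestinal alkaline phosphatase, then read 6.21, 7.94 and 7.91 at 0 h and 8.90, 9.46, 8.26 and 8.76 at 24 h, a difference of 1.49 ± 0.320 (adjusted p = 0.00999). Slc3a1, the heavy chain of a brush border transporter of cystine and dibasic amino acids, differed by 1.36 ± 0.316 (adjusted p = 0.0177), and Mep1b by 0.95 ± 0.170 (adjusted p = 0.00322). Dgat1, which makes triglyceride, differed by 0.47 ± 0.119 (adjusted p = 0.0273). Replicate 1 was the lowest 0 h array for each of these, and with replicates 4 and 5 alone only Mep1a (0.89 ± 0.184, adjusted p = 0.0179) and Mep1b (0.74 ± 0.172, adjusted p = 0.0386) were called, where 1.05% of all genes were. Alpi was then 0.92 (adjusted p = 0.101) and Slc3a1 0.99 (adjusted p = 0.156).

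**Figure D2:**
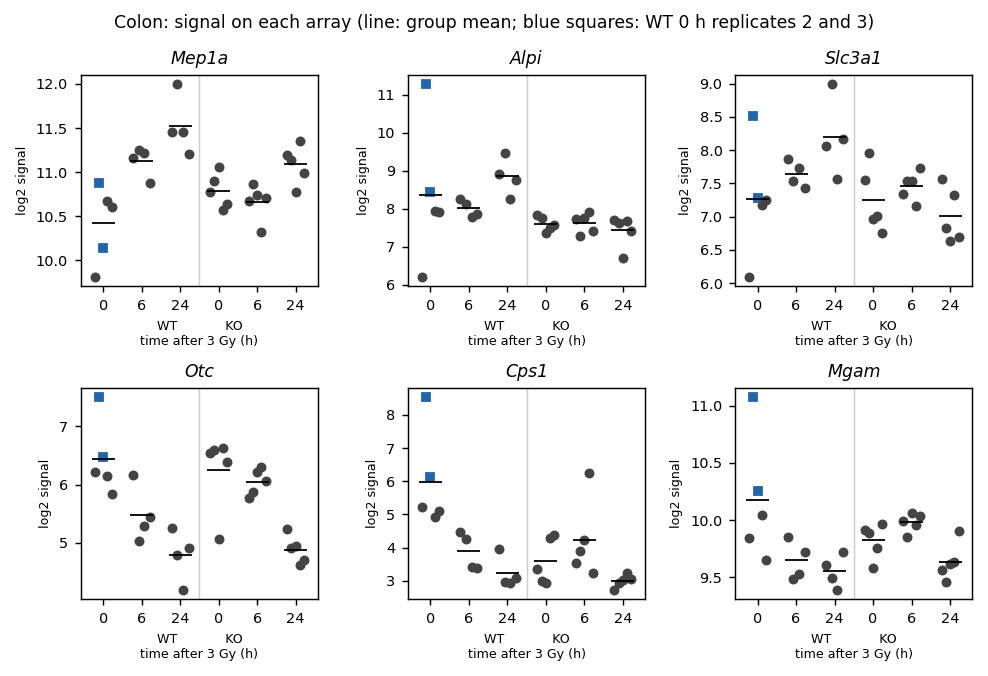
Log2 signal of 6 members on every colon array by genotype and hours after 3 Gy, with the group mean as a line and WT 0 h replicates 2 and 3 as blue squares. Mep1a lies higher at 24 h than at 0 h in WT, Otc and Cps1 lie lower at 24 h, and the blue square of replicate 2 stands above the other WT 0 h arrays in all panels.

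No member was called in KO colon at 6 h (1.48% of all genes), and 2 members had an unadjusted p under 0.05. Between the WT times of 6 and 24 h no member was called either, where 0.242% of all genes were, and 3 members had an unadjusted p under 0.05. The member medians in KO colon were 0.09 at 6 h and 0.01 at 24 h against 0 h, and -0.01 and 0.00 over all genes.

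Between the genotypes in colon, 1 member was called at 0 h (2.07% of all genes) and none at 6 h (0.879%) or 24 h (0.469%). At 6 h, 2 members had an unadjusted p under 0.05, and at 24 h 6 had. Cps1 read 3.34, 2.98, 2.93, 4.30 and 4.38 on the KO arrays at 0 h, below all 5 WT arrays. The difference was -2.40 ± 0.546 (5.26-fold lower, adjusted p = 0.0211), -1.50 without WT 0 h replicates 2 and 3 (adjusted p = 0.113), and -2.64 (adjusted p = 0.733) in a fit with a batch term, which rests on 1 KO array. Leaving out replicate 2 (-2.25) or 3 (-2.23) of the KO 0 h group ended the call too. The member median at 0 h was -0.55 with all arrays and 0.00 without WT replicates 2 and 3.

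At 24 h, Alpi read 7.70, 7.63, 6.69, 7.69 and 7.42 in KO colon, below all 4 WT arrays. The difference of -1.42 ± 0.530 was not called with all arrays in the fit (adjusted p = 0.347). Leaving WT 0 h replicates 2 and 3 out of the fit kept the difference and narrowed its SE to 0.281 (adjusted p = 0.0146), with Dgat1 (-0.55 ± 0.105, adjusted p = 0.0105) and Slc3a1 (-1.19 ± 0.278, adjusted p = 0.0482) called beside it among 0.623% of all genes. Batch and genotype cannot be told apart at this time. Of 5 fibroblast markers, Col1a1 (1.42, adjusted p = 0.000653), Col1a2 (1.14, adjusted p = 0.000323) and Col3a1 (0.89, adjusted p = 0.00261) were also higher in KO colon at 24 h, and these and Dcn (0.54, adjusted p = 0.0496) were at 0 h. The list mean was 10.05 to 10.51 in WT and 10.80 to 11.37 in KO at 24 h, and its part was not tested. No member was called in the colon interactions, where 0.0220% of all genes were at 6 h and 0.0293% at 24 h, with 9 and 7 members at an unadjusted p under 0.05.

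In jejunum, the arrays fell into 3 sorts by markers of position that are not members. Pdx1, a transcription factor of the duodenum and proximal jejunum, read 7.28 to 8.91 on 17 arrays, 12 WT and 5 KO. It read 2.57 to 3.04 on 9 arrays, 1 WT and 8 KO. On the remaining 2, replicate 2 of WT 24 h and replicate 3 of KO 0 h, the ileal bile acid genes stood out, with Slc10a2 at 8.25 and 8.83 and Fabp6 at 15.28 and 15.33. Fabp6 was at most 3.01 on the arrays of high Pdx1 and 2.70 to 11.61 on those of low Pdx1. All 5 WT 0 h arrays had high Pdx1 and all 4 KO 6 h arrays had low Pdx1, so genotype and position cannot be told apart at 6 h. The KO 24 h group held both sorts, with 3 arrays of low and 2 of high Pdx1. The mean of the 8 general epithelial markers was 12.59 to 12.81 on the arrays of low Pdx1 and 12.29 to 12.53 on those of high Pdx1. On the 2 with ileal markers it was 12.88 and 12.94, and its part in the member differences was not tested. These sorts were defined from the data and are not groups of the study, so they are described without a test.

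The members differed with these sorts in a patterned way. On the 9 low Pdx1 arrays, 5 of 36 members read higher than on any of the 17 high Pdx1 arrays (0.733% of all genes) and 2 read lower (0.997%). Together these were 7 of 36 members, against 1.73% of all genes. The higher ones were mostly transporters and peptidases. Slc15a1, the peptide transporter PEPT1, read 9.59 to 10.41 against 8.60 to 9.53. Slc5a1, the sodium-glucose transporter SGLT1, read 13.45 to 13.80 against 12.46 to 13.40.

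Npc1l1, the cholesterol uptake protein, read 11.65 to 12.36 against 10.87 to 11.54. Dpp4, a dipeptidyl peptidase of the brush border, read 12.19 to 12.55 against 11.14 to 11.95. Mep1a read 9.69 to 10.78 against 7.40 to 9.53. The 2 lower members were Alpi, at 12.39 to 12.84 against 13.28 to 14.32, and Rbp2, the retinol binding protein of enterocytes, at 13.47 to 14.01 against 14.03 to 14.34. Within the KO 24 h group alone, 21 of 36 members did not overlap between the 3 arrays of low and the 2 of high Pdx1, 13 of them higher and 8 lower on the low ones, against 31.5% of all genes.

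**Figure D3:**
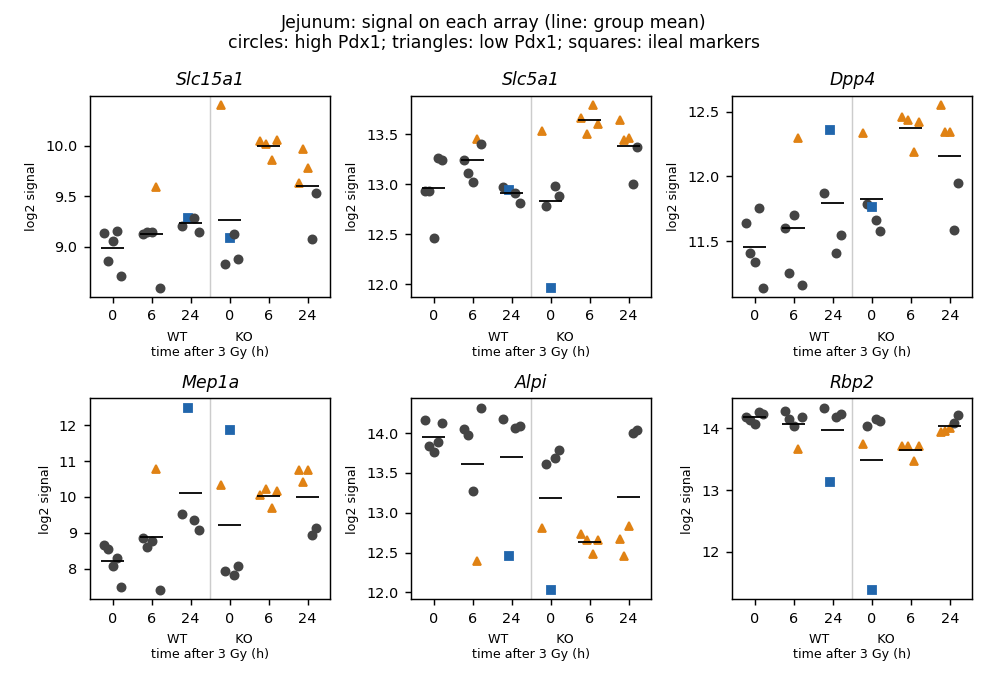
Log2 signal of 6 members on every jejunum array by genotype and hours after 3 Gy, with circles for high Pdx1, triangles for low Pdx1, squares for the 2 arrays with ileal markers and a line for the group mean. Triangles lie above circles for Slc15a1, Slc5a1, Dpp4 and Mep1a and below them for Alpi and Rbp2, in both genotypes.

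The 2 arrays with ileal markers read below the other 26 for 11 of 36 members, against 2.84% of all genes, and above them for 1, against 2.89%. Of the 7 fatty acid binding and lipoprotein genes, Fabp1, Apoa4, Apoc3 and Mttp were among the 11. Of the 7 triglyceride and sterol genes, Dgat2 and Cd36 were. The rest of both lists overlapped with the other arrays. Lct and Treh, of 3 measured disaccharidases, were also among the 11, as were Slc2a2, Slc7a8 and Rbp2. Slc2a2 read 7.65 and 6.95 on the arrays with ileal markers, and at least 9.99 on all others. Fabp1, which carries fatty acids in the cytosol, read 13.07 and 13.66. The 1 higher member was Mep1a, at 12.49 and 11.86.

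**Figure D4:**
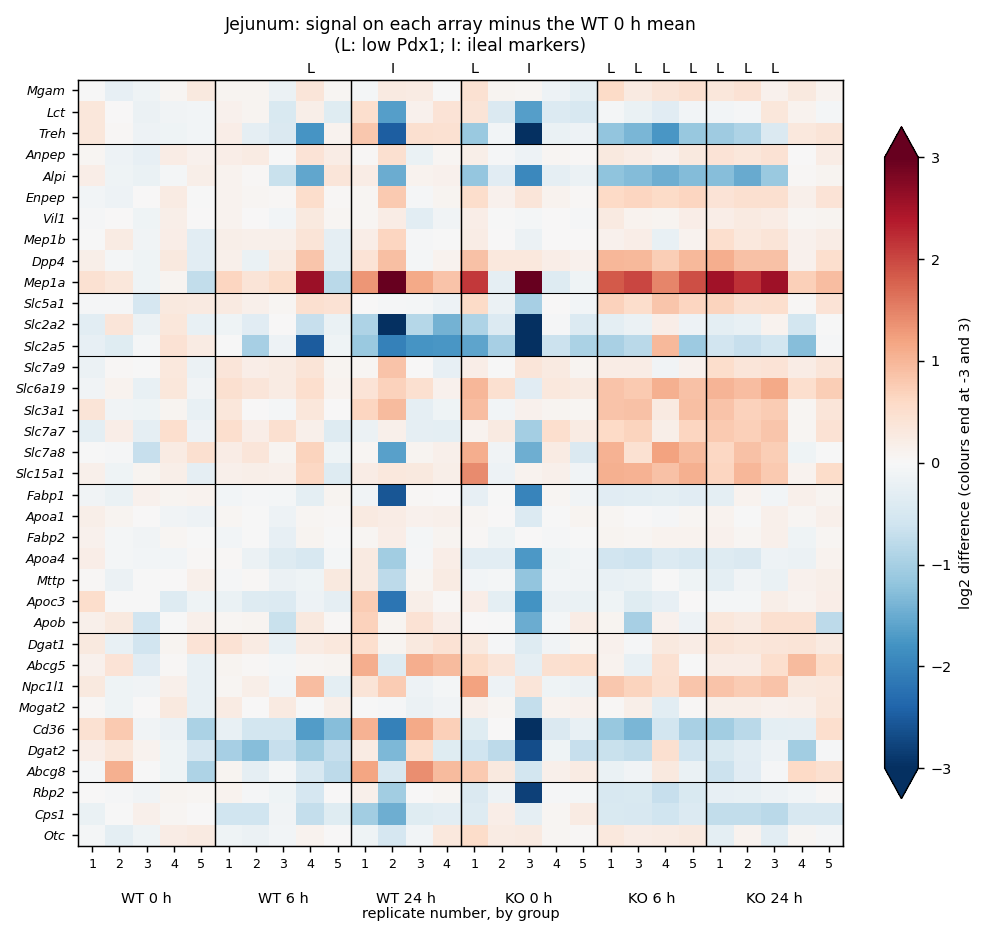
Log2 signal of the 36 measured members (rows, by role) on each jejunum array (columns, by group and replicate number) minus the WT 0 h mean, with colours ending at -3 and 3 and L and I marking arrays of low Pdx1 and with ileal markers. Columns marked I are blue for Lct, Treh, Slc2a2, Fabp1 and Cd36, and columns marked L are red for Mep1a and Slc15a1 and blue for Alpi in both genotypes.

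Over all jejunum arrays, 1 of 36 members was called between times within a genotype, Cps1 in WT mice at 24 h against 0 h, where 1.40% of all genes were called. All groups carry the same dose label, so radiation and time cannot be told apart. No member was called in WT jejunum at 6 h (0.432% of all genes) or between 6 and 24 h (0.755%), with 2 and 3 members at an unadjusted p under 0.05. In KO jejunum none was called at 6 h (0.660%), 24 h (0.689%) or between them (0.117%), with 11, 8 and 1 at an unadjusted p under 0.05. The member medians stayed close to those of all genes in WT mice, at 0.02 for both times against -0.02 and -0.01. In KO mice they were 0.17 at 6 h and 0.33 at 24 h, against -0.02 and -0.01, and 33 of the 36 changes at 24 h were positive. Without the arrays with ileal markers these KO medians were 0.08 and 0.19, and 30 of the 36 changes at 24 h were positive. Among arrays of high Pdx1, 3 at 0 h and 2 at 24 h, the KO median at 24 h was 0.18, against -0.002 over all genes. There 31 changes were positive and 5 negative. Among arrays of low Pdx1, which left 1 KO array at 0 h, the KO medians were -0.13 at 6 h and 0.02 at 24 h. Of the 36 changes, 27 were negative at 6 h, and 19 were positive and 17 negative at 24 h.

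Cps1 read 11.47, 11.65, 11.81, 11.72 and 11.67 in WT jejunum at 0 h. At 6 h it read 11.06, 11.07, 11.56, 10.95 and 11.30, and at 24 h 10.62, 10.20, 11.29 and 11.35. Every 24 h array was below every 0 h array, and the lowest was the one with ileal markers. The mean of the 4 proliferation markers was 7.35 to 8.07 at 0 h and 6.12 to 6.48 at 24 h in WT jejunum, and its part was not tested. The change was -0.80 ± 0.180 (1.74-fold lower, adjusted p = 0.0240). It was -0.58 without that array and was then not called, nor was it when replicate 1 of WT 24 h (-0.72) or replicate 3 (-0.76) or 4 (-0.78) of WT 0 h was left out.

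In KO jejunum, Cps1 read 11.28, 11.86, 11.40, 11.72 and 11.91 at 0 h and 10.92, 10.93, 10.86, 11.18 and 11.18 at 24 h. The KO groups did not overlap either. The KO change of -0.63 ± 0.170 was not called with all arrays (adjusted p = 0.0942) and was called without the KO 0 h array with ileal markers (-0.68 ± 0.147, adjusted p = 0.0300, 0.513% of all genes). Among arrays of high Pdx1 it was -0.65 ± 0.194 (adjusted p = 0.333), on 3 and 2 arrays.

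Comparing like with like, among arrays of high Pdx1 only, WT jejunum at 24 h (3 arrays) differed from 0 h (5 arrays) in 3 members, 1 higher and 2 lower, where 1.41% of all genes were called. Against 6 h (4 arrays), 4 members were higher and 2 lower, where 2.47% of all genes were called. This restriction was chosen after the data were seen. The higher members were Abcg5, Abcg8, Cd36 and Treh, and the lower ones were the hexose transporters Slc2a2 and Slc2a5. The member median at 24 h against 0 h was 0.09, and -0.02 over all genes.

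Abcg5 and Abcg8 encode the 2 subunits of a sterol pump that returns cholesterol and plant sterols to the gut lumen. The genes lie head to head on chromosome 17, and their RefSeq upstream windows (GRCm38.p6, 250 bases before to 50 after the start) are printed because both members were higher at 24 h than at 6 h among arrays of high Pdx1. Abcg5 is at chr17:84682962-84683261 on the minus strand and Abcg8 at chr17:84682871-84683170 on the plus strand, so the windows share 209 bases read on opposite strands. Capitals again mark GATAA or TTATC.
Abcg5: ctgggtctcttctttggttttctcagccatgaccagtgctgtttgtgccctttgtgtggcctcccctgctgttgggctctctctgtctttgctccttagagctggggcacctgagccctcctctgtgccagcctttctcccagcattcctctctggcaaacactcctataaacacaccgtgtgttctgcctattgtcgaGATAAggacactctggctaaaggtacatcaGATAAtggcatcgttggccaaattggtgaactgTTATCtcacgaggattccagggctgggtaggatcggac
Abcg8: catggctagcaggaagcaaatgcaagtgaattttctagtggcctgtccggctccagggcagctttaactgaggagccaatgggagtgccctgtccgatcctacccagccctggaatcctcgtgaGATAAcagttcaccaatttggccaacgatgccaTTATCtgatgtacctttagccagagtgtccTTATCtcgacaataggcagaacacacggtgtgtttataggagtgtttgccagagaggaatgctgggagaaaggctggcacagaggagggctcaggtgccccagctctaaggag
Each window holds 3 such matches, which lie in the shared stretch and are the same bases. Windows were matched for 32 of the 38 members, with Sis and Ggt1 among them, not for Mep1b, Apoc3, Dgat1, Dgat2, Mogat2 and Cps1. Some genes have several windows, and the bases shared by Abcg5 and Abcg8 count in both. Of the 41 windows, 20 (48.8%), in 18 of the 32 genes, hold GATAA on either strand, against 25.4% of all 32851 windows. CAAAGT, a core of HNF4 motifs, is in 29.3% against 14.4%, GTTAAT, a core of HNF1 motifs, in 12.2% against 7.10%, and TTTATNG, a core of CDX motifs, in 26.8% against 10.9%, on both strands. A TTTATNG match with C at the N also holds a GATAA match on the other strand.

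Abcg5 read 11.24, 11.52, 10.77, 11.16 and 10.89 in WT jejunum at 0 h. At 6 h it read 11.19, 11.16, 11.06, 11.18 and 11.20, and at 24 h 12.21, 10.73, 12.21 and 12.06. The 3 arrays of high Pdx1 at 24 h were above all earlier WT arrays, and the second 24 h array, with ileal markers, was below them. The difference from 0 h was 0.69 ± 0.238 over all arrays (1.61-fold, adjusted p = 0.149). It was 1.04 ± 0.143 among arrays of high Pdx1 (adjusted p = 0.00249).

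Abcg8 read 7.45, 8.55, 7.48, 7.36 and 6.56 at 0 h, 7.57, 7.21, 7.41, 6.99 and 6.70 at 6 h, and 8.67, 6.99, 8.86 and 8.43 at 24 h. It showed the same order of arrays at 24 h, with 1 array at 0 h as high as the later ones. Among arrays of high Pdx1 it was higher at 24 h than at 6 h by 1.43 ± 0.328 (adjusted p = 0.0318), and than at 0 h by 1.18 ± 0.314, which was not called (adjusted p = 0.0834). Cd36, a fatty acid translocase, read 10.44, 10.77, 9.88, 9.80 and 9.03 at 0 h, 9.76, 9.43, 9.43, 8.31 and 8.70 at 6 h, and 11.04, 7.94, 11.13 and 10.70 at 24 h. Among arrays of high Pdx1 it was higher at 24 h than at 6 h by 1.62 ± 0.346 (adjusted p = 0.0232), without overlap, and the difference from 0 h of 0.97 was not called (adjusted p = 0.177). Treh was higher than at 6 h by 0.68 ± 0.155 (adjusted p = 0.0303). With the arrays of low Pdx1 kept and only those with ileal markers left out, 4 members were higher at 24 h than at 6 h and 1 was lower, where 1.81% of all genes were called. These were Abcg5, Abcg8 (1.48), Cd36 (1.83) and Dgat2 (1.06), the last an enzyme of triglyceride synthesis, and Slc2a2 (-0.79).

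Slc2a2 read 11.10, 11.77, 11.23, 11.75 and 11.20 in WT jejunum at 0 h, 11.28, 11.07, 11.43, 10.71 and 11.22 at 6 h, and 10.49, 7.65, 10.56 and 9.99 at 24 h. All 4 arrays at 24 h were below all 10 earlier ones, the ileal one far below. Among arrays of high Pdx1 the difference from 0 h was -1.06 ± 0.191 (adjusted p = 0.0156). Slc2a5, the fructose transporter GLUT5, read 9.18, 9.06, 9.36, 9.85 and 9.67 at 0 h, 9.41, 8.43, 9.28, 6.93 and 9.30 at 6 h, and 8.31, 7.40, 7.64 and 7.69 at 24 h. The 24 h arrays were below every 0 h array, and at 6 h only the array of low Pdx1 was lower than them. The difference from 0 h was -1.54 ± 0.287 among arrays of high Pdx1 (adjusted p = 0.0190) and -1.67 ± 0.541 over all arrays (adjusted p = 0.123).

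**Figure D5:**
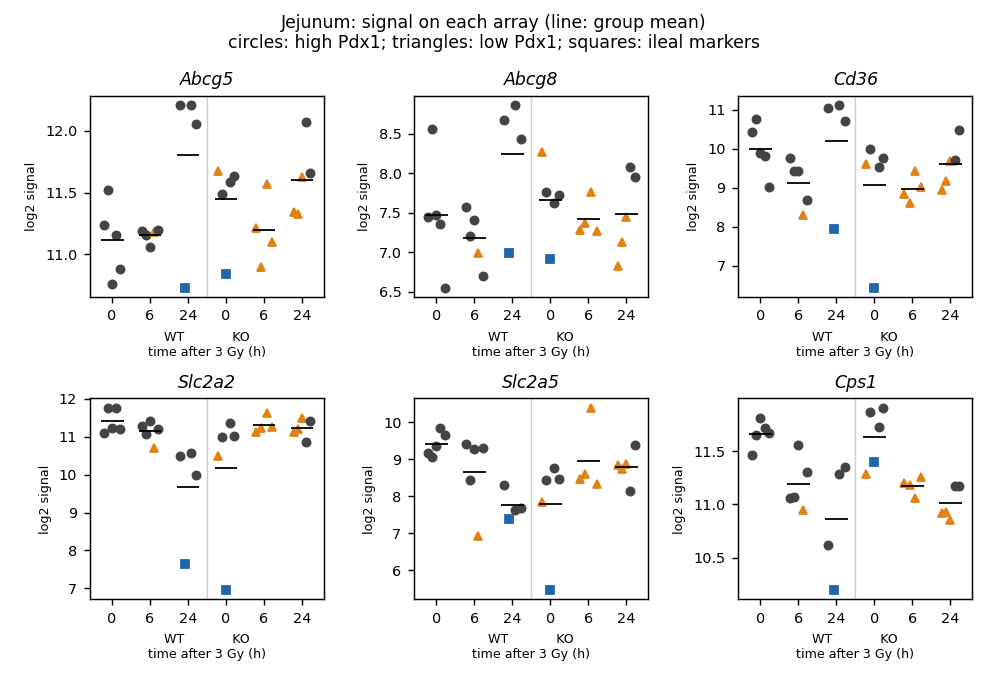
Log2 signal of 6 members on every jejunum array by genotype and hours after 3 Gy, with circles for high Pdx1, triangles for low Pdx1, squares for the 2 arrays with ileal markers and a line for the group mean. At 24 h the WT circles lie above the earlier WT circles for Abcg5 and below them for Slc2a2, and the squares lie apart for Slc2a2 and Cd36.

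Beside these differences, the mean of the 5 exocrine pancreas markers was 8.68, 13.10 and 12.10 on the 3 WT 24 h arrays of high Pdx1. It was 3.44 to 12.65 on the WT 0 h arrays and 3.22 to 10.97 on the WT 6 h arrays of high Pdx1. On all arrays of low Pdx1 or with ileal markers it was 2.94 to 3.13. Its part in the results was not tested.

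In KO jejunum only 3 arrays at 0 h and 2 at 24 h had high Pdx1, and among them no member was called, where 0.110% of all genes were. Abcg5 differed by 0.30 ± 0.179 (adjusted p = 0.661), Slc2a2 by 0.01 ± 0.239 (adjusted p = 1) and Slc2a5 by 0.21 ± 0.359 (adjusted p = 0.948). The interaction at 24 h among these arrays was 1.07 ± 0.306 for Slc2a2, 1.76 ± 0.459 for Slc2a5 and -0.75 ± 0.229 for Abcg5, each with an adjusted p of 1. Over all arrays no gene was called in the jejunum interactions (0% at either time), where limma gave 677 genes at 6 h and 694 at 24 h an unadjusted p under 0.05, among them 2 and 5 members. A difference between the genotypes in these changes over time was therefore not called.

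Between the genotypes in jejunum, 1 member was called at 6 h (2.14% of all genes) and none at 0 h (0.183%) or 24 h (0.704%), with 4 and 5 at an unadjusted p under 0.05. Slc15a1 read 9.13, 9.15, 9.14, 9.59 and 8.60 in WT jejunum at 6 h and 10.05, 10.02, 9.86 and 10.06 in KO jejunum. The KO arrays were all above the WT arrays, of which the highest was the only WT array of low Pdx1. The difference was 0.87 ± 0.231 (1.83-fold, adjusted p = 0.0455), and it lost its call without any 1 of 8 of the 9 arrays, at 0.74 to 0.92. Among arrays of low Pdx1, where the WT group was that 1 array and was assumed to vary like the rest, it was 0.40 ± 0.138 (adjusted p = 0.295).

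The Slc15a1 values at the other times are given beside the same marker. They are no separate test, since Slc15a1 was singled out above as not overlapping between the sorts over these same arrays. The part of position in the genotype difference was not tested. The KO 0 h arrays read 10.41, 8.83, 9.09, 9.13 and 8.88, and the first of these was the only one of low Pdx1. The KO 24 h arrays read 9.63, 9.97, 9.78, 9.08 and 9.53, and the first 3 were those of low Pdx1. WT arrays read 9.14, 8.86, 9.06, 9.16 and 8.71 at 0 h and 9.21, 9.29, 9.29 and 9.15 at 24 h.

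Without the 2 arrays with ileal markers, 5 members were called between the genotypes at 6 h, 4 higher and 1 lower in KO, where 4.32% of all genes were. They were Slc15a1, Dpp4 (0.77), Slc6a19 (0.56), the aminopeptidase Enpep (0.45) and Rbp2 (-0.41), and all KO arrays at 6 h were of low Pdx1. At 24 h 4 members were called, where 1.99% of all genes were, with Slc2a2 (0.88), Slc7a7 (0.81) and Slc7a9 (0.44) higher and Cd36 (-1.36) lower in KO. Within arrays of high Pdx1, 2 KO and 3 WT, none of these was called at 24 h, where 0.235% of all genes were. Each kept its direction on these few arrays, but they were also part of the fit that gave the calls, so this is no separate support. Slc2a2 read 10.87 to 11.41 in KO against 9.99 to 10.56 in WT, and Slc7a7 9.87 to 10.24 against 9.51 to 9.63. Slc7a9 read 11.48 to 11.63 against 11.02 to 11.32, and Cd36 9.71 to 10.48 against 10.70 to 11.13.

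The member with the highest mean in jejunum was taken as the leading one of each role, and over all arrays none of them was called between times in jejunum. Mgam read 13.27 to 14.12, with group medians of 13.55 to 13.67 in WT and 13.62 to 13.98 in KO. Anpep, the aminopeptidase N, read 13.92 to 14.65, and Slc5a1 read 11.97 to 13.80. Slc6a19, the main neutral amino acid transporter, read 11.02 to 12.48. Dgat1 read 11.39 to 12.47, and Rbp2 11.38 to 14.34 with its lowest value on KO 0 h replicate 3. Apoa1 read 15.07 to 15.74, and its lowest value was on the same array.

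Other genes of the same pathways were counted from a separate list of 41, of which 38 were measured and 35 tested in colon and 38 in jejunum. Each comparison called 0 or 1 of the 35 in colon, against 2.18% of all genes in WT mice at 6 h and 5.29% at 24 h. In colon, Pck1, a gluconeogenic enzyme, fell in WT mice at 6 h (-0.62, adjusted p = 0.0177) and Cdhr2, a brush border cadherin, rose at 24 h (0.47, adjusted p = 0.0493). Ezr, which links microvilli to actin, rose in KO mice at 6 h (0.34, adjusted p = 0.0268). Between the genotypes in colon, Acsl5 was lower in KO at 0 h (-0.67, adjusted p = 0.0491). The phosphate transporter Slc34a2 was lower in KO at 6 h (-1.96, adjusted p = 0.0454). The mean of the 38 measured genes was 7.80 and 6.86 on WT colon 0 h replicates 2 and 3, and 6.54 to 6.92 on the other colon arrays. The part of these arrays in the calls against WT colon 0 h was not tested. In jejunum, Abca1 (2.15, adjusted p = 0.0181) and Ezr (0.89, adjusted p = 0.0141) were higher in KO at 6 h, 2 of 38 against 2.14% of all genes, and no other gene of this list was called there. All KO jejunum arrays at 6 h were of low Pdx1 and of the other batch, so genotype, position and batch cannot be told apart here.

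Of 19 regulators of enterocyte genes, 17 were measured and tested in both tissues. In WT colon at 24 h 4 fell and none rose, where 2.51% of all genes fell and 2.78% rose. They were Mlxipl (-1.07, adjusted p = 0.0113), which senses carbohydrate, Srebf1 (-0.69, adjusted p = 0.00135), a regulator of lipid synthesis, Hnf4g (-0.63, adjusted p = 0.0466) and the intestinal homeobox gene Cdx1 (-0.54, adjusted p = 0.0115). Srebf1, 1 of 17 in each case against 2.18% and 2.07% of all genes, also fell at 6 h (-0.52, adjusted p = 0.0193) and was lower in KO than in WT colon at 0 h (-0.50, adjusted p = 0.0206). The mean of the 17 measured regulators was 7.78 and 7.23 on WT colon 0 h replicates 2 and 3. It was 6.97, 7.19 and 7.06 on replicates 1, 4 and 5 of that group, and 6.98 to 7.19 in WT colon at 24 h. The part of replicates 2 and 3 in these colon calls was not tested. In jejunum, Ppara, a receptor that turns on fatty acid use and likewise 1 of 17, against 0.755% and 2.14% of all genes, rose from 6 to 24 h in WT mice (1.43, adjusted p = 0.0396) and was higher in KO than in WT at 6 h (1.48, adjusted p = 0.0175). For the difference at 6 h, genotype, position and batch cannot be told apart. No other regulator was called in any of the 22 comparisons.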

How the data were processed

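The deposited values are log2 signals of 45101 probe sets of an Affymetrix mouse array, made by the authors with GCRMA and RMA, per the submitters' processing notes, which give neither version nor role. Each tissue was normalized on its own, with floors of 2.28 in colon and 2.32 in jejunum. RNA came from whole tissue. In the tissue tables, 55 array columns held the same values as the series' value table, and 1 colon column could not be matched, so KO colon 24 h replicate 3 was read from that table and given the batch of the column left over. Batches are the first field of the array names.

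Probe sets of 1 gene (34958) were used, 932 of several and 9211 of no gene were not, and genes in the lowest 25% by mean were dropped. Per tissue, group means over 28 arrays were fitted with limma 3.58.1 in R 4.3.3 (eBayes with trend, two-sided, Benjamini-Hochberg within each of 11 comparisons), and the fit was tested on simulated data. An interaction is the KO change minus the WT change. The labels do not tie replicate numbers to shared mice or days, and same-numbered arrays did not deviate together (median r = 0.0101 over 65 pairs in colon, 0.0121 in jejunum), so they were not paired. Nothing says how the replicates were raised, so p-values measure the spread between these samples.

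The members and lists were chosen with earlier results of these data known. All members could be named, with array values for those called and for 1 leading member of each role. Promoter windows are from RefSeq (GRCm38.p6). Settings based on Pdx1, on ileal markers and on WT colon 0 h arrays were chosen after the data were seen.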

Additional observations from a re-analysis of the deposited data

Results flagged for a closer look

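Among 108 groups of 4 or 5 arrays of the members shown by array, 13 single arrays lay far from the rest of their group, and chance flags about 1 in 20 groups. KO jejunum 0 h replicate 3, which carried ileal markers, was far below its group for Slc2a2 (6.95), Slc2a5 (5.46), Rbp2 (11.38), Apoa1 (15.07) and Abcg5 (10.84). WT jejunum 24 h replicate 2, the other array with ileal markers, was far below its group for Abcg5 (10.73) and Rbp2 (13.14). KO jejunum 0 h replicate 1, the only array of low Pdx1 in its group, was far above it for Slc15a1 (10.41). KO jejunum 6 h replicate 4 was far above its group for Slc2a5 (10.40) and below it for Rbp2 (13.47). In colon, KO 0 h replicate 3 was far below its group for Otc (5.07), and its p53 target mean was 9.06 where the rest of the group read 7.15 to 7.33. WT 24 h replicate 1 was far above its group for Cps1 (3.97). KO 24 h replicate 3 was far below its group for Alpi (6.69), with an exocrine pancreas mean of 9.58. The part of these markers was not tested.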

How the results depend on the processing

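The number of members called depended on which arrays entered, and the cause was not tested. Percentages in brackets are shares of all genes tested in that fit. In WT colon at 6 h the 1 called member (2.18%) became 0 without the filter on low genes (1.36%) and with 0 h replicates 4 and 5 alone (0.843%). It became 2 after quantile normalization (2.40%), with the proximal marker list as a covariate (2.76%), or without 0 h replicates 2 and 3 (1.49%). At 24 h the 4 (5.29% of all genes) became 9 with the covariate (6.16%), 8 without replicate 2 of WT 0 h and replicate 3 of KO 0 h (6.23%), 7 without WT 0 h replicates 2 and 3 (3.85%), and 2 with replicates 4 and 5 alone (1.05%). In KO colon at 6 h the 0 (1.48%) became 1 (Lct, 0.54) without WT 0 h replicates 2 and 3 (1.57%). At 24 h the 1 (0.183%) became 0 with batch as a term (0.0879%), without the filter (0.0715%), and with the mean of all probe sets (0.161%). From 6 to 24 h the 1 (1.29%) became 0 without the filter (0.478%) and 2 with the covariate (1.57%). Between the genotypes in colon, the 1 at 0 h (2.07%) became 0 with batch (0.103%), with the covariate (1.16%), and without either set of arrays (0.755% and 1.14%). The 0 at 6 h (0.879%) became 2 with the covariate (0.682%). The 0 at 24 h (0.469%) became 3 with it (0.572%) or without either set (0.594% and 0.623%).

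In jejunum the 1 member in WT mice at 24 h (1.40%) became 2 with the covariate (1.27%) or without the arrays with ileal markers (1.11%), and 3 with high Pdx1 only (1.41%). From 6 to 24 h the 0 (0.755%) became 5 without the arrays with ileal markers (1.81%) and 6 with high Pdx1 only (2.47%). In KO mice the 0 at 6 h (0.660%) became 3 with batch (1.72%), 2 with mean probe sets (0.572%) and 1 after quantile normalization (0.850%). At 24 h the 0 (0.689%) became 3 with batch (1.19%) and 1 with mean probe sets (0.821%), the covariate (1.22%), or no ileal arrays (0.513%). Between the genotypes the 0 at 0 h (0.183%) became 2 with batch (2.86%). The 1 at 6 h (2.14%) became 7 with batch (5.45%), 5 without ileal arrays (4.32%) and 2 with mean probe sets (2.16%). It became 0 without the filter (1.13%), after quantile normalization (2.40%) or with the covariate (0.601%). The 0 at 24 h (0.704%) became 4 with batch (1.42%) or without ileal arrays (1.99%). Rbp2 turned from -0.41 to 0.31 between the genotypes at 6 h with the covariate, and Cd36 from -0.60 to 0.078 at 24 h with batch. In both tissues the batch term rests on KO 0 h replicate 1, the only KO array in the batch of the WT arrays. In jejunum this is also the only array of low Pdx1 in its group, so batch and position cannot be told apart in that setting.

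With 1 array left out, counts ran in colon from 0 to 7 (WT 6 h), 3 to 10 (WT 24 h), 0 to 1 (KO 24 h), 0 to 0 (KO 24 h against 6 h) and 0 to 6 (genotypes at 0 h). In jejunum they ran from 0 to 1 (WT 24 h), 0 to 2 (WT 24 h against 6 h), 0 to 3 (KO 6 h), 0 to 3 (KO 24 h) and 0 to 3 (genotypes at 6 h), and in all other comparisons they were 0. No share over all genes is set beside these leave-one-out counts. They therefore do not tell a change in the members from a change in all genes. With a replicate block, Otc in KO colon at 24 h kept its change of -1.36 and lost its call (adjusted p = 0.0560), so the count became 0 (0.176% of all genes), and no other call of a member changed. Signals near the array floor bound how large a fall can be measured.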
